A study of Mus musculus with 10 samples.

Results

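Slc2a2 and Slc5a1, the genes of the glucose transporters GLUT2 and SGLT1, were taken by their symbols from a deposited table of 230 genes, of which they are 2. The table comes from MIN6N8 cells, a mouse insulinoma line with the properties of pancreatic beta-cells, given PBS (5 libraries) or mouse IL-22 at 100 ng/mL (5 libraries) for 4 h. The cells of all 10 libraries were kept in medium with 22 mM glucose and moved to medium with 5.5 mM glucose for the treatment, per the sample labels. The study's own text differs from the labels. Its methods name a lower IL-22 dose, more glucose in the maintenance medium and a move to low glucose well before the experiments. A legend in its supplement gives another number of samples, without saying whether it is per group. The cells are 1 line, the labels do not say whether the libraries came from separate cultures, and errors here measure only the spread between libraries. The authors listed only genes with a false discovery rate (FDR) under 0.05 in their own comparison of IL-22 with PBS. Both genes were therefore chosen by the contrast described here, and their levels are given as a description, with no test.

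Beta-cells take up glucose in proportion to its level in blood, phosphorylate it and burn it, and the ATP that results closes potassium channels and sets off insulin release. GLUT2 is a facilitative carrier of low affinity and high capacity that lets glucose run down its gradient, and it is the main glucose transporter of the rodent beta-cell. SGLT1 is a cotransporter of another family that pulls glucose in against its gradient together with sodium, and it is best known from the brush border of the small intestine. IL-22 is a cytokine that acts on epithelial and secretory cells, chiefly through the transcription factor STAT3.

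Slc2a2 is a plus-strand gene of mouse chromosome 3, between 28697903 and 28731359 (GRCm38). Its longest annotated transcript holds 11 exons and 5569 nt. The antisense gene 1700112D23Rik lies across it on the minus strand but shares no exon bases with it. Slc5a1 lies on chromosome 5 from 33104219 to 33162870 on the plus strand, and its 1 annotated transcript holds 15 exons and 4104 nt. A pair of processed pseudogenes, Gm15936 and 5033423K11Rik, overlaps it without sharing exon bases. No transcript of another gene matched either transcript at 97% identity over at least 100 nt, so reads shared with a near-identical copy were not found at this limit.

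The 250 bases before the start of each gene are shown because the levels of the genes differed in opposite directions under a cytokine that acts through a transcription factor. They come from RefSeq (GRCm38.p6), chr3:28697653-28697902 for Slc2a2 and chr5:33103969-33104218 for Slc5a1, both on the plus strand. Capitals mark E-boxes (CANNTG), the binding letters of basic helix-loop-helix factors, and no other motif that was searched for occurred in either window.
Slc2a2: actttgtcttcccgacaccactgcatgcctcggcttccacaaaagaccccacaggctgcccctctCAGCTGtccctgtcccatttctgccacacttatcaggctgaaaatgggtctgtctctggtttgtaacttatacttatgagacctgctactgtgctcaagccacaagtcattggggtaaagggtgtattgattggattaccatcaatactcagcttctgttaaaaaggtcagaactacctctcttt
Slc5a1: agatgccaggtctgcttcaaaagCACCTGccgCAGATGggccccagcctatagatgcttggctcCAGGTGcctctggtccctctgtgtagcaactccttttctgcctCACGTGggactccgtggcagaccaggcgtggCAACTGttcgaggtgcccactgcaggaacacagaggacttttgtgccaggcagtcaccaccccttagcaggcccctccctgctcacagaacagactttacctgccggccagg

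The Slc2a2 window held 1 E-box and the Slc5a1 window held 5. Of 32851 windows of the same length before annotated starts, 66.2% held at least 1 E-box and 1.15% held at least 5. The other motifs were searched for on both strands. The STAT letters TTCNNNGAA occur in 7.02% of all windows and the AP-1 letters TGANTCA in 6.75%. The GC box GGGCGG occurs in 32.7%, the TATA box as TATAAA in 12.4%, the homeodomain core TAATTA in 4.84% and the HNF1 motif, by its full palindrome, in 0.00913%. The marked E-boxes do not overlap each other. The absence of these letters concerns these windows only. The Slc5a1 window was the richer in G and C, with 150 such bases of 250 against 118 for Slc2a2, where the median window has 52.4%.

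The libraries held between 23685885 and 35785881 counted reads, with a median of 29468621 for PBS and 27611826 for IL-22 (n = 5 each). Expression is given as CPM, the read count of a gene scaled to the size of its library. Libraries also differed in how their levels ran with the GC content of the transcripts. A GC index was taken for each library as the slope of its log2 CPM, relative to the mean of all libraries, on transcript GC content over the 228 listed genes other than Slc2a2 and Slc5a1. The index lay between 0.00434 and 0.00939 log2 units per percent GC in the IL-22 libraries and between -0.0158 and -0.00345 in PBS libraries 1 to 4. PBS library 5, at 0.00717, lay within the range of the IL-22 libraries and apart from the other PBS libraries. As the genes behind the index were listed for differing with IL-22, the index and the treatment cannot be told apart.

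Slc2a2 was the abundant transporter and was slightly lower with IL-22. Its level was 77.3, 78.0, 81.0, 76.8 and 72.6 CPM in PBS libraries 1 to 5. It was 64.8, 74.0, 65.7, 69.2 and 69.2 CPM in IL-22 libraries 1 to 5. The groups overlapped in 1 place only, as IL-22 library 2, the highest of its group, lay above PBS library 5, the lowest of its group. A PBS library was the higher in 24 of the 25 pairs of 1 PBS and 1 IL-22 library. The means were 77.1 ± 3.03 CPM (SD, n = 5) and 68.6 ± 3.61 CPM (SD, n = 5). This is a log2 fold change of -0.17 (SE 0.044), or 0.889 of the PBS level. Between 1759 and 2765 reads were counted on Slc2a2 in a library. Counting error alone would spread the PBS libraries by 2.09% and the IL-22 libraries by 2.29% of the mean, and the measured spread was 3.93% and 5.27%. By the fitted fold the level was 11.1% lower with IL-22. As Slc2a2 was listed by this same contrast, the size of this difference beside the spread is no test of it.

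Slc5a1 was close to the limit of counting with PBS and 2.93-fold higher with IL-22. It was counted with 18, 18, 10, 10 and 3 reads in PBS libraries 1 to 5, which are 0.503, 0.76, 0.334, 0.339 and 0.104 CPM. It was counted with 33, 29, 30, 38 and 35 reads in IL-22 libraries 1 to 5, which are 1.08, 1.08, 1.12, 1.35 and 1.27 CPM. Each IL-22 library lay above each PBS library, and PBS library 5 was the lowest of all. The means were 0.408 ± 0.243 CPM (SD, n = 5) and 1.18 ± 0.123 CPM (SD, n = 5) and the log2 fold change was 1.55 (SE 0.375).

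With so few reads the single values are loose. The exact 95% Poisson interval covers counting error only. It ran from 0.450 to 1.20 CPM in PBS library 2, the highest PBS library. In IL-22 library 1, the lowest of its group, it ran from 0.743 to 1.52 CPM. These intervals overlap, and the counts of these libraries were not compared by a test. Over all libraries of a group, 59 reads were counted with PBS and 165 with IL-22. Scaled by the summed library totals, their ratio was 2.96, with an exact 95% interval for counting error of 2.19 to 4.05. The PBS libraries varied more than counting gives, with 3.91 times the variance of counting error, whereas the IL-22 libraries had 0.364 times that variance. For Slc2a2 these values were 3.48 and 5.30.

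**Figure D1:**
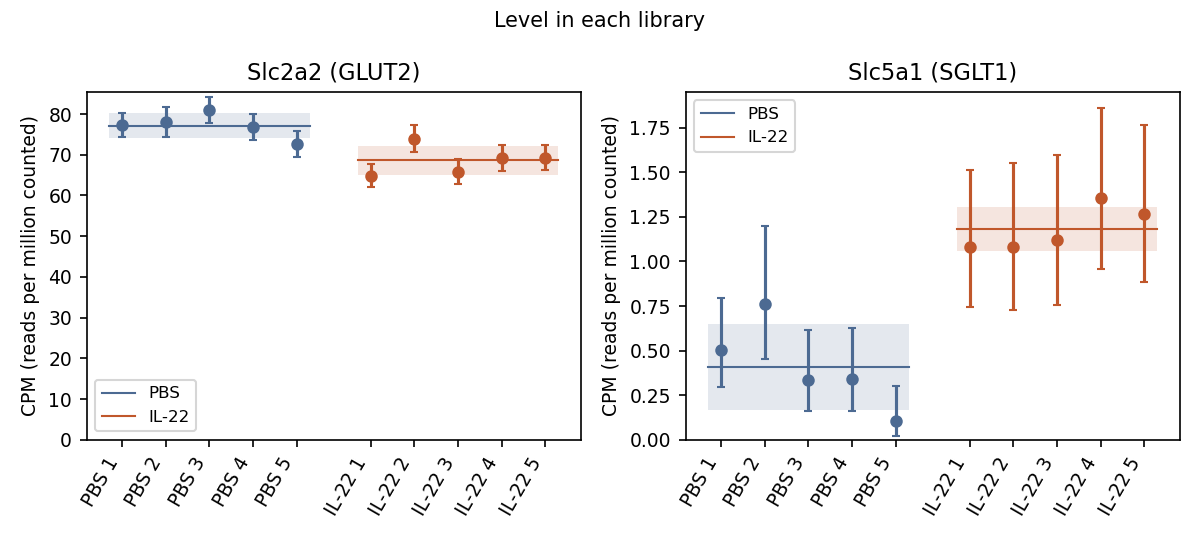
Level of Slc2a2 (left) and Slc5a1 (right) in each of the 10 libraries, in CPM, on axes from 0. Points are single libraries with exact 95% Poisson intervals for counting error, lines are group means and bands are ± 1 SD (n = 5). Slc2a2 runs from 64.8 to 81.0 CPM with 1 overlap between the groups, and Slc5a1 is at or below 0.76 CPM in each PBS library and at or above 1.08 CPM in each IL-22 library.

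Both genes had an adjusted p-value below 0.01 in edgeR's quasi-likelihood fit of the whole table, as did 94.8% of the 230 listed genes (81.3% of the 230 higher and 13.5% of the 230 lower with IL-22). Groups that did not overlap, with IL-22 the higher, were seen in Slc5a1 and in 46.5% of the listed genes, and groups that did not overlap, with IL-22 the lower, in 6.09% of them and not in Slc2a2. As the genes were listed by the same comparison, nothing is read from these counts. By log2 fold change Slc5a1 ranked 3 of 230 genes from the highest and Slc2a2 ranked 10 from the lowest, while the median over the listed genes was 0.21. Slc5a1 was the least abundant gene of the table. All 16 listed genes with a mean under 5 CPM were higher with IL-22, and their smallest log2 fold change was 0.65 and their median 1.03. The median over the 214 more abundant genes was 0.20. A floor of 1 CPM separates the groups for Slc5a1, since 0 of 5 PBS libraries and 5 of 5 IL-22 libraries reached it. Of the listed genes, 1 other, 1700084C01Rik, shared this pattern (named after its values were seen). Slc5a1 thus passed the filter on low levels only through the group in which it was high.

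**Figure D2:**
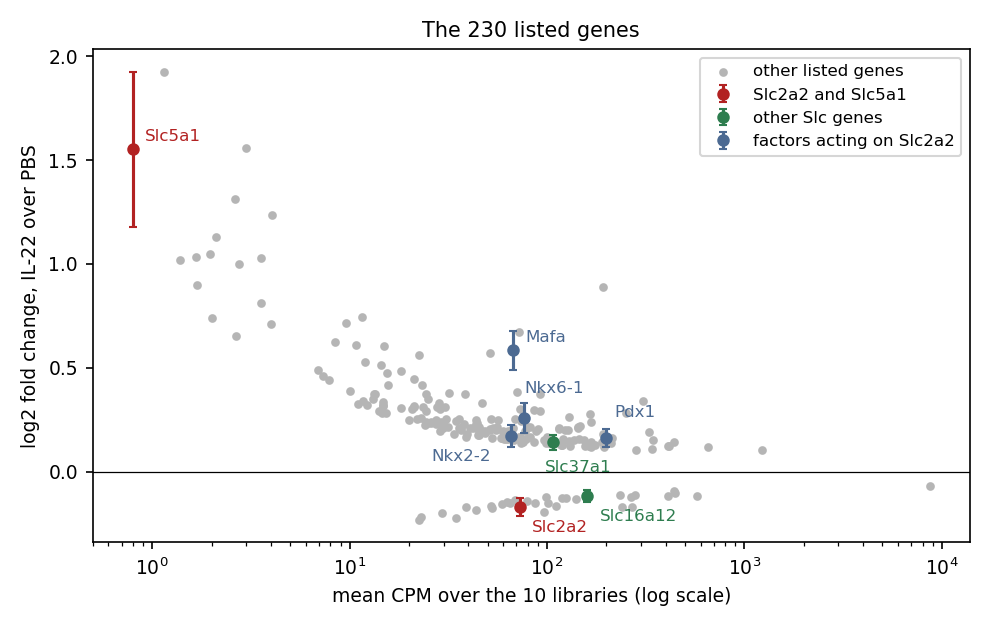
Change with IL-22 (log2 fold change) against the mean level over 10 libraries (CPM, log scale) for the 230 listed genes. Bars are SE for the named genes; Slc5a1 lies at the far left with the lowest level and a log2 fold change of 1.55, and Slc2a2 lies below 0 at -0.17 among genes of middle level, most of which are above 0 in this scaling.

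Per length of transcript, Slc2a2 was the more abundant of the 2 transporters in every library. Per kilobase of the longest transcript it reached 13.9 ± 0.544 CPM per kb with PBS and 12.3 ± 0.649 with IL-22 (SD, n = 5 each). Slc5a1 reached 0.0994 ± 0.0591 CPM per kb with PBS and 0.288 ± 0.0301 with IL-22 (SD, n = 5 each). The ratio of Slc2a2 to Slc5a1 per kb was 113, 75.6, 179, 167 and 514 in PBS libraries 1 to 5. It was between 37.7 and 50.3 in the IL-22 libraries. As both genes were listed for differing in this contrast, nothing is read from the gap between the groups. The PBS values rest on 3 to 18 reads of Slc5a1 in a library, and the 514 on 3 reads. The size of the ratio depends on the length used for Slc2a2, whose 3 annotated transcripts differ in length. With their median length its mean level over all libraries was 44.2 in place of 13.1 CPM per kb, while the ratio between libraries is unaffected by this choice.

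The GC index ran against the level of Slc5a1 over the PBS libraries and not over the IL-22 libraries, where library 4 had both the highest index, 0.00939, and the highest level, 1.35 CPM. With group means removed, the log2 CPM of Slc5a1 had a correlation of r = -0.905 with the index over the 10 libraries, and of -0.66 without PBS library 5. For Slc2a2 these values were -0.238 and 0.394. The libraries come from the same cell line, and the points share the depth and base composition of each library, so the values are descriptive. At 41.7% and 47.8% GC, the transcripts of Slc2a2 and Slc5a1 were poorer in GC than the median listed gene at 56.8%. PBS library 5, the 1 PBS library with an index like that of the IL-22 libraries, had 0.104 CPM of Slc5a1, and all 5 IL-22 libraries were above it, at 1.08 to 1.35 CPM. In Slc2a2 it had 72.6 CPM, 4 of 5 IL-22 libraries were below it, and the other PBS libraries were at 76.8 to 81.0 CPM. With the index as a covariate, the log2 fold change was 2.74 (SE 0.586) for Slc5a1 and -0.14 (SE 0.059) for Slc2a2. Without PBS library 5, it was 1.31 and -0.19. The part of library base composition in either difference was not tested.

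**Figure D3:**
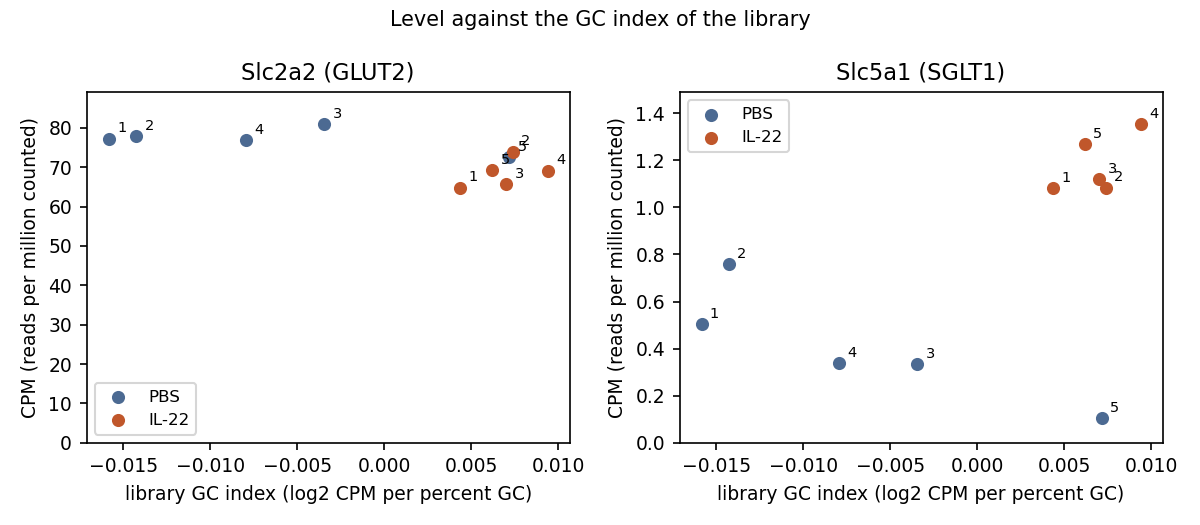
Level (CPM, axes from 0) of Slc2a2 (left) and Slc5a1 (right) against the GC index of each library (log2 CPM per percent GC), with replicate numbers beside the points. Within PBS, Slc5a1 is highest in libraries 1 and 2, which have the lowest index, and lowest in library 5, whose index of 0.00717 lies among the IL-22 libraries.

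Scaling moved the size of the difference in Slc2a2 and not its direction. With factors taken from the listed genes alone, the median log2 fold change of those genes went from 0.21 to 0.0025 (edgeR's TMM) or 0.013 (DESeq2's size factors). Slc2a2 then had a log2 fold change of -0.38 (SE 0.051) or -0.37 (SE 0.056). Slc5a1 had 1.34 in both. These factors assume that most genes given are unchanged, whereas these genes were listed for differing. Adding 1 CPM before taking logarithms brought the log2 fold change of Slc5a1 to 0.65 (SE 0.159) and adding 5 CPM brought it to 0.19 (SE 0.052); its own level is 1.18 CPM with IL-22 and 0.408 CPM with PBS. Slc2a2 remained at -0.17 and -0.16.

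**Figure D4:**
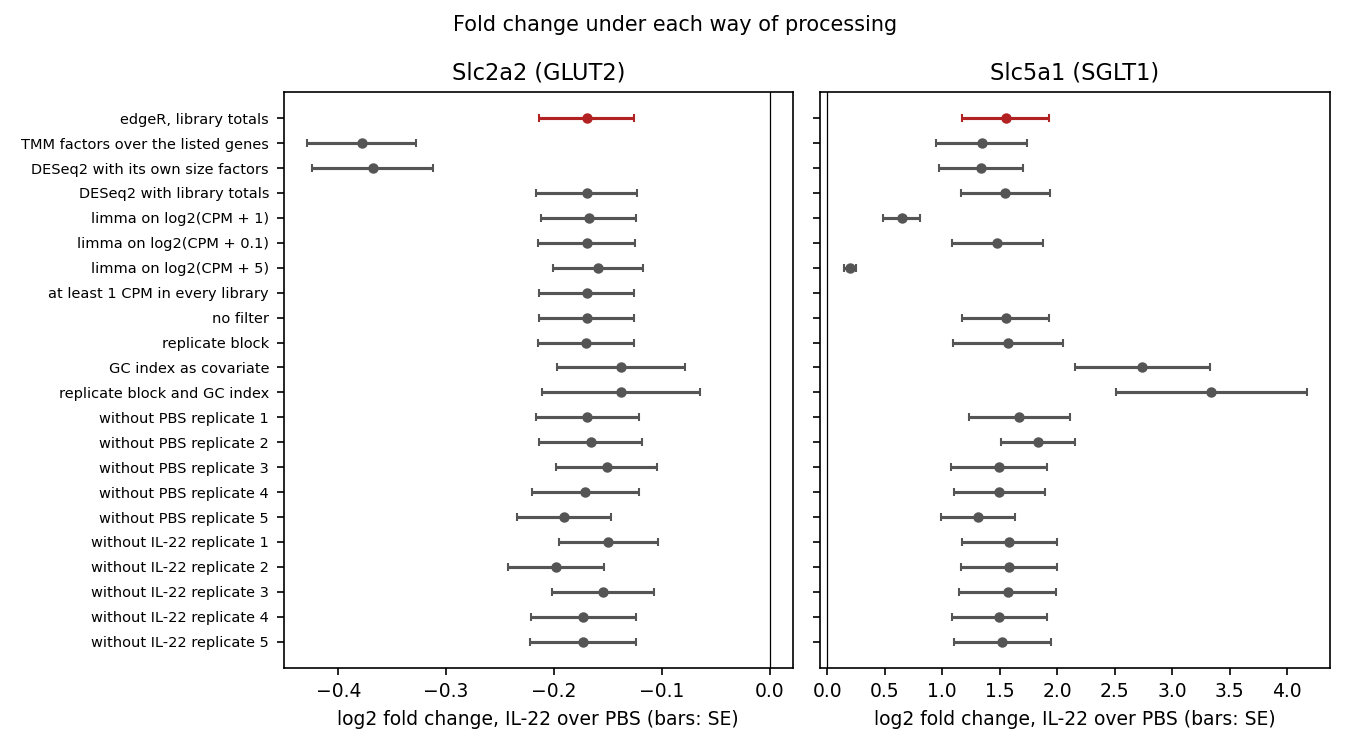
Change with IL-22 (log2 fold change, SE bars) for Slc2a2 (left) and Slc5a1 (right) under each processing alternative. Each value of Slc2a2 is below 0, from -0.38 to -0.14, and each value of Slc5a1 is above 0, from 0.19 to 3.34; Slc5a1 has no value with a floor of 1 CPM in every library, which it does not reach.

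Of the 12 facilitative glucose transporters sought, Slc2a2 was the 1 in the table, and of the 13 members of the sodium-coupled family sought, Slc5a1 was the 1. The others, among them Slc2a1 and Slc5a2, were not analysed here. None of the 12 genes of the sodium pump and its FXYD regulators, of the 10 partners and regulators of SGLT1, of the 20 genes of glucose phosphorylation and glycolysis, of the 8 genes between ATP and exocytosis, or of the 4 glucose-responsive genes sought was in the table. The table held 4 solute carrier genes in all. Of these, 2 had a log2 fold change above 0 and 2 below, against 197 and 33 of the 230 listed genes. Their median log2 fold change was 0.01 beside 0.21 over all listed genes. Besides Slc2a2 and Slc5a1 they were Slc37a1 and Slc16a12, both with an adjusted p-value under 0.01 in edgeR, as in 94.8% of listed genes. Slc37a1, a carrier of sugar phosphates, went from 103 ± 3.72 to 113 ± 3.29 CPM (SD, n = 5 each). Its log2 fold change was 0.14 (SE 0.037), and it turned to -0.066 and -0.055 with factors computed over the listed genes. Slc16a12, of the monocarboxylate transporter family, went from 167 ± 1.31 to 154 ± 3.13 CPM (SD, n = 5 each), a log2 fold change of -0.12 (SE 0.029) that became -0.32 and -0.31 with those factors. In both genes the groups did not overlap, as in 46.5% of listed genes with IL-22 the higher and 6.09% with IL-22 the lower. With the GC index as covariate neither passed 0.01, at 0.11 (SE 0.0499) for Slc37a1 and -0.12 (SE 0.0412) for Slc16a12, nor did either with the replicate block and the index together.

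Slc2a2 is under the control of several beta-cell transcription factors. Of the 15 factors sought, 4 were in the table, and all 4 were higher with IL-22 (edgeR, adjusted p-value under 0.01), as were 81.3% of all listed genes, with a median log2 fold change of 0.21 beside 0.21 over all listed genes. Pdx1, a master regulator of the pancreas and beta-cell, went from 188 ± 11.2 to 210 ± 9.60 CPM (SD, n = 5 each). Mafa, a late factor of beta-cell maturity, went from 53.6 ± 10.3 to 80.3 ± 3.55 CPM, Nkx6-1, a factor of beta-cell identity, from 69.8 ± 7.21 to 83.5 ± 7.99 CPM, and Nkx2-2, which is needed for beta-cell formation, from 61.6 ± 4.32 to 69.4 ± 3.79 CPM (SD, n = 5 each). Slc2a2 thus had the opposite sign to these 4 genes with library totals as the scaling. With factors computed over the listed genes, Mafa went from a log2 fold change of 0.58 to 0.39 and 0.40 and still passed, Nkx6-1 went from 0.26 to 0.055 (SE 0.0595) and 0.066 (SE 0.0666) and did not pass, Pdx1 turned to -0.041 and -0.030, and Nkx2-2 to -0.034 and -0.024. All 4 also passed without PBS library 5. Nkx6-1 did not pass when PBS library 2, IL-22 library 3 or IL-22 library 5 was left out (log2 fold change 0.21 to 0.23), nor did Nkx2-2 without PBS library 1, 2 or 4 or IL-22 library 3, 4 or 5 (0.15 to 0.17). Once the GC index entered the edgeR fit, Mafa had an adjusted p-value under 0.01, at a log2 fold change of 0.21 (SE 0.0541), and the other 3 did not pass. With the replicate block added to the index, Mafa did not pass either, at 0.21 (SE 0.0686).

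Of 12 beta-cell markers sought, 5 are in the table. As it holds only genes listed for differing with IL-22, it cannot check the labelled cell type. The markers not in it, among them Ins1 and Ins2, were not analysed here. Iapp, the gene of the granule peptide amylin, was the most abundant listed gene at 8928 ± 222 CPM with PBS and 8508 ± 336 CPM with IL-22 (SD, n = 5 each), and did not pass 0.01 (log2 fold change -0.07, SE 0.028). It passed without IL-22 library 1 (-0.085) and with factors computed over the listed genes (-0.28 and -0.27). Pdx1, Mafa, Nkx6-1 and Slc2a2 are the other 4. Markers of alpha, delta and PP cells and of intestinal or renal epithelium were not analysed here, as none of the 13 sought is listed. Fewer cells with a transcript and less of it per cell cannot be told apart in these bulk samples.

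The genes whose pattern was most like that of each transporter were sought among the other 229 listed genes, by Pearson's r of log2 CPM over the 10 libraries with group means removed. Closest to Slc5a1 were Muc1, a membrane mucin of epithelia (r = 0.86), Lrrtm2, a synaptic adhesion protein (0.843), Fgb, a fibrinogen chain (0.793), Asb4, a SOCS-box protein (0.777), and Cxx1a (0.647). These 5 genes were themselves higher with IL-22, by log2 fold changes from 0.29 for Cxx1a to 1.31 for Asb4. Without PBS library 5 the values were 0.779 for Muc1, 0.653 for Lrrtm2, 0.429 for Asb4, 0.363 for Cxx1a and -0.021 for Fgb, so the likeness to Fgb rested on that library. Most listed genes ran the other way, with a median r of -0.484 and 114 genes at or below -0.5, against 14 at or above 0.5.

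Closest to Slc2a2 were Ube2c, a ubiquitin-conjugating enzyme of the cell cycle (r = 0.858), Ctso, a cathepsin (0.786), Wars, a tRNA synthetase (0.699), Clta, a clathrin light chain (0.673), and Il17rc, a receptor subunit for IL-17 (0.659). Of these 5 genes, Ctso was lower with IL-22, like Slc2a2, with a log2 fold change of -0.13, and the others were higher, from 0.12 for Ube2c to 0.18 for Il17rc. Their r lay between 0.617 and 0.835 without PBS library 5. Over the 229 genes the median r was -0.085, with 11 at or above 0.5 and 13 at or below -0.5. The r between Slc2a2 and Slc5a1 was 0.425, and -0.073 without PBS library 5. All these values share libraries, depth and base composition, and in the sparse counts of Slc5a1 they carry much counting error.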

How the data were processed

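MIN6N8 cells given PBS or IL-22 were profiled by stranded mRNA sequencing, and groups and replicate numbers were taken from the sample titles. The authors deposited 1 table of 230 genes with raw counts, whole read numbers per gene with no normalization, on genome build mm10 per the labels. The aligner, counter and annotation are not given in the sources used here. The authors also deposited CPM, and 99.8% of the deposited CPM values equal the count over the library total to within 0.001. Further deposited columns hold the authors' log2 fold change, mean log2 expression, p-value and FDR. None was used, except that each FDR was found to be under 0.05. A column for PBS is 0 throughout.

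The total of each library was taken from its count to CPM ratio. A gene was kept when 5 libraries reached 1 CPM (230 of 230). Counts were fitted in edgeR 4.0.16 (R 4.3.3) by the quasi-likelihood method, two-sided, scaled by library totals only, and p-values were adjusted by Benjamini-Hochberg over 230 genes. SE was derived from the F statistic. Dispersions rest on genes selected by the same contrast (common dispersion 0.00413), and the adjustment is lenient for such genes. Alternatives used limma 3.58.1, DESeq2 1.42.0, other scalings, pseudocounts and filters, the replicate block, the GC index, and each library left out. Transcripts and overlaps came from GENCODE M21 (GRCm38), on which all 230 genes were found, 10 of them through an earlier symbol. Shared sequence was sought with blastn 2.17.0, intervals were computed in scipy 1.17.1, and promoter windows came from RefSeq. The pair of genes and all lists were chosen with earlier results of these data known. Named genes are the pair, the genes of those lists found in the table, and the 5 genes most like each by Pearson's r. Protein sequences were not used here.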

Additional observations from a re-analysis of the deposited data

Results flagged for a closer look

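In 1 of 42 groups of 5 libraries examined (19 genes and 2 measures of each library, in both conditions), a library was set apart from the others, where chance at 1 in 20 would give 2.1. Lrrtm2, one of the genes most like Slc5a1, was at 12.4 CPM in IL-22 library 3, and the other IL-22 libraries were at 11.1 to 11.4 CPM. No group of Slc2a2 or Slc5a1 held such a library.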

How the results depend on the processing

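The direction of both differences was the same in each setting tried (11 for Slc2a2, 10 for Slc5a1, and 10 fits that each left out a library). By more than the spread between libraries, the log2 fold change of Slc2a2 moved to -0.38 with TMM factors and -0.37 with DESeq2's own size factors, both computed over the listed genes. That of Slc5a1 moved to 0.65 with limma on log2(CPM + 1), 0.19 with limma on log2(CPM + 5), 2.74 with the GC index as covariate and 3.34 with the replicate block and the GC index together. With a library left out in turn, it lay between -0.20 and -0.15 for Slc2a2 and between 1.31 and 1.83 for Slc5a1. With at least 1 CPM in every library, Slc5a1 gave no value.

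The number of listed genes below 0.01 was 187 higher and 31 lower with IL-22. It was 18 higher and 33 lower with TMM factors, 30 higher and 33 lower with DESeq2's own size factors, 25 higher and 0 lower with the GC index, and 24 higher and 0 lower with the replicate block and the index. At an unadjusted p-value under 0.05, 11 and 13 genes were lower in these last 2 fits. With a library left out in turn it was 127 to 196 higher and 15 to 32 lower. The lowest count of lower genes, 15, was without IL-22 library 4. Per kb of the median transcript in place of the longest, Slc2a2 went from 13.1 to 44.2 CPM per kb.

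Same-numbered libraries had correlations of their deviations from the group means of 0.299, 0.291, 0.326, -0.158 and -0.310 for replicates 1 to 5. Among the libraries of the other group, 5 of 10 libraries correlated best with their own number. These values do not settle whether the numbers pair the libraries, and the main fit did not pair them. The replicate block gave log2 fold changes of -0.17 for Slc2a2 and 1.57 for Slc5a1, and 193 genes higher and 32 lower. It brought Iapp (-0.07) below 0.01. Depth limits Slc5a1, with 3 to 38 reads in a library, more than Slc2a2, with at least 1759.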
